A study of Homo sapiens with 7 samples.

Results

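Autophagy machinery was followed through 40 genes picked by their known role in the process, out of 60591 rows in a count table from human cells. The cells were the line TE11, which the labels call esophageal squamous cell carcinoma cells. They had received 200 µM diclofenac for 48 h (n = 4 libraries) or 0.07% DMSO, the vehicle, for 48 h (n = 3 libraries). Diclofenac, an anti-inflammatory painkiller, blocks the cyclooxygenases, and by its title the study asked about metabolism and p53 in the drug's action on this cancer. The labels name no genetic change in either group, and all libraries came from this 1 line. The 40 genes are a list of names that applies no measured value, though it was drawn up with earlier results of these data known. They fell into 5 roles: 5 genes of the initiation kinase, 12 of membrane nucleation, 10 of conjugation, 6 LC3 and GABARAP proteins and 7 cargo receptors.

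In autophagy a cell wraps part of its cytoplasm in a double membrane and delivers it to the lysosome. The ULK kinase complex starts the process when nutrients are short or mTORC1 is inactive, a lipid kinase complex marks the site with phosphatidylinositol 3-phosphate, and the ATG2, ATG9 and WIPI proteins let the membrane grow. A ubiquitin-like conjugation system then couples LC3 and GABARAP proteins to lipid in that membrane, where cargo receptors bind them and bring in aggregates, mitochondria or bacteria. Levels of these transcripts describe the supply of the machinery and do not measure its flux.

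Libraries held 19878696 to 26490829 counts. Levels are given as normalized CPM, that is CPM with each library scaled by edgeR's TMM factor. In all, 18311 genes were expressed enough to be tested, and 59.7% of them differed between diclofenac and vehicle by edgeR's quasi-likelihood test at a Benjamini-Hochberg adjusted p under 0.05, 5541 (30.3%) higher and 5399 (29.5%) lower. That split depended on the scaling and was 7013 against 4167 with upper-quartile factors and 8655 against 3027 by total counts alone, a scaling under which the median gene moved up by 0.18 (log2). Directions below are therefore relative to the bulk of genes. More genes were detected under diclofenac (29683 to 30570) than under vehicle (26762 to 27403), and the nuclear RNA MALAT1 took 0.0276% to 0.0337% of counts under diclofenac and 0.00458% to 0.00540% under vehicle. Mitochondrial mRNA took 0.917% to 1.28% of counts under diclofenac and 0.535% to 0.700% under vehicle, with no overlap. The part of these differences in the results below was not tested. The squamous markers KRT5, KRT14, KRT6A and TP63 together had 8 counts under diclofenac and 5 under vehicle, so these markers were at or near 0 in cells labelled squamous. Of the other epithelial markers, KRT8 averaged 20.4 normalized CPM under diclofenac and 9.92 under vehicle and EPCAM 2.90 and 1.99, both called higher. KRT18 averaged 57.0 and 67.8 and was called lower, and CDH1, at 3.00 and 2.43, did not pass. Of the mesenchymal markers, VIM averaged 666 normalized CPM under diclofenac and 709 under vehicle and CDH2 108.5 and 115, neither passing. ZEB1, at 27.05 and 22.05, was called higher, and COL1A1, at 12.5 and 17.0, lower. The part of these marker changes in the results below was not tested. The blood marker PTPRC had 6 and 2 counts and the endothelial marker PECAM1 21 and 2 counts in all diclofenac and all vehicle libraries.

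Autophagy transcripts moved in both directions and by small amounts. Of the 40 genes, 39 passed the filter on low counts, and 28 of these (71.8%) differed between diclofenac and vehicle, against 59.7% of all tested genes. Among them 16 were higher under diclofenac (background 30.3%) and 12 lower (background 29.5%). The median log2 fold change was 0.03 over the 39 genes and 0.02 over all tested genes. Diclofenac and vehicle libraries lay wholly apart for 29 of the 39 genes, or 74.4%, against 58.5% of all tested genes. Libraries were made from bulk RNA, in which a change in the mix of cells and a change in RNA per cell cannot be told apart. Summed over all 40 genes, the level was 2424 to 2493 normalized CPM in diclofenac libraries and 2448 to 2458 in vehicle libraries, so that the ranges overlapped. As a share of raw counts, that is scaled by each library's total alone, the sum was 0.257% to 0.260% under diclofenac and 0.226% to 0.230% under vehicle. Rises of at least 1.5-fold were called for 2 of the 39, ATG9B and OPTN, against 13.6% of all tested genes, and no fall was that large, against 5.93%. ATG9B, with 10 counts in each vehicle library, passed the filter on low counts through its diclofenac libraries. The filter thus favoured a rise of this gene, which is counted in the 16 and in these 2. Without TMM, by total counts alone, the split was 22 higher and 5 lower, beside 47.3% and 16.5% of all genes.

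The change of a gene under diclofenac followed its level across the whole table, so the autophagy genes were also read against genes of like level. Among 5110 genes with a mean of 4 to 6 log2 CPM, the median log2 fold change was -0.02 and 65.9% were called. The 22 autophagy genes in that range had a median of 0.01, and 63.6% of them were called. Of these 22, 8 were higher and 6 lower, beside 31.0% and 35.0% of the genes there. Among 3433 genes with a mean of 6 to 8 log2 CPM the median was -0.17, 16.1% were higher and 57.6% lower. The 14 autophagy genes there had a median of -0.05, with 5 higher and 6 lower, so that 78.6% were called against 73.8% of the genes there. The shares of autophagy genes called in either direction thus lay near those of genes of like level. At 6 to 8 log2 CPM rises were more common and falls less common than among all genes there, over only 14 genes. That difference was not tested.

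**Figure D1:**
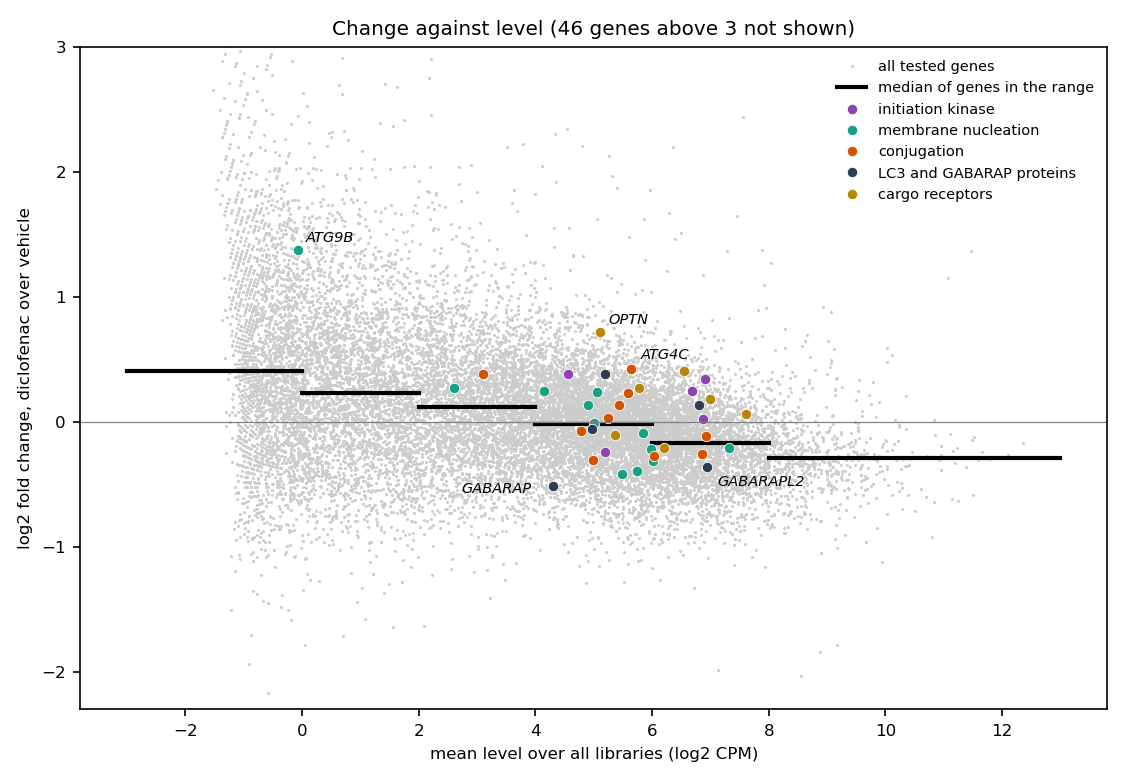
Log2 fold change of diclofenac over vehicle (vertical axis) against mean level in log2 CPM (horizontal axis) for all tested genes in grey (those above 3 are not shown), with the 39 tested autophagy genes coloured by role and the median of all genes in each range of level as black bars. The medians fall with level, and most autophagy genes lie within the grey cloud between -0.52 and 0.72, with ATG9B at 1.37 among weakly expressed genes.

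**Figure D2:**
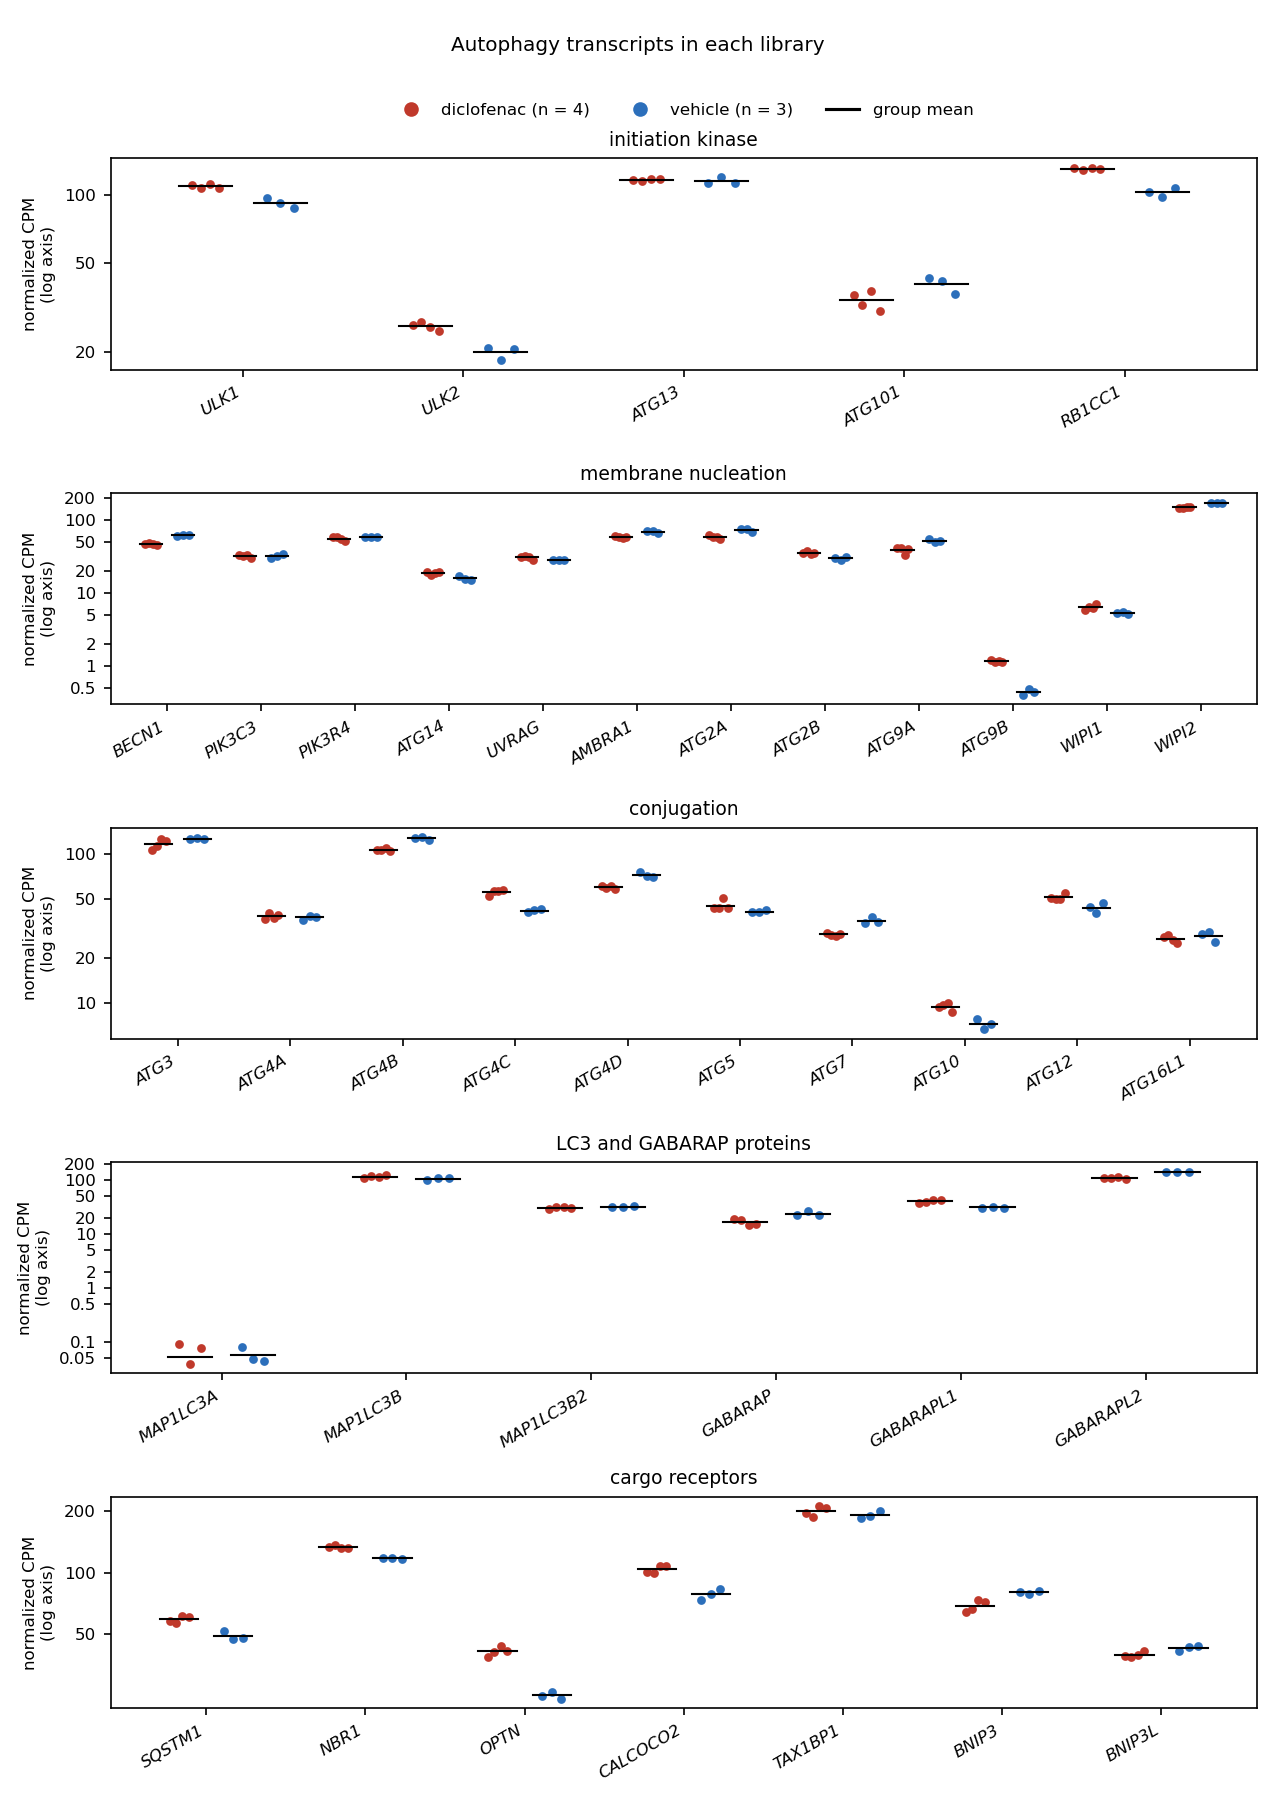
Normalized CPM on a log axis for each of the 40 genes by role, with 1 point per library, diclofenac in red (n = 4), vehicle in blue (n = 3) and group means as black lines. The diclofenac library in which MAP1LC3A had no count is not drawn but enters its mean; OPTN, CALCOCO2, RB1CC1 and ATG4C stand above vehicle in all 4 diclofenac libraries, and GABARAP, GABARAPL2 and BECN1 below it.

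Of the 5 genes of the initiation kinase, 3 were higher and 1 lower under diclofenac, beside 30.3% and 29.5% of all tested genes. The kinases ULK1 and ULK2 and the scaffold RB1CC1 (FIP200) rose, ATG101 fell, and ATG13 did not pass the test. RB1CC1 stood at 132, 129.8, 133 and 131 normalized CPM in the diclofenac libraries, against 104, 98.7 and 108 in the vehicle libraries. All 4 diclofenac libraries lay above all vehicle libraries, at a log2 fold change of 0.35 (SE 0.0434, edgeR adjusted p = 4.69e-07). ULK1, the catalytic kinase that mTORC1 holds in check, had 111, 108, 112 and 108 normalized CPM under diclofenac and 97.7, 92.3 and 87.8 under vehicle. These values did not overlap either, with a log2 fold change of 0.25 (SE 0.0456, edgeR adjusted p = 7.67e-05). ULK2, its close relative, was at 26.3, 27.1, 25.8 and 24.7 normalized CPM under diclofenac and at 20.8, 18.4 and 20.5 under vehicle, a fold of 1.30 with no overlap. The count ratio of ULK2 to ULK1 within a library was 0.228 to 0.250 under diclofenac and 0.199 to 0.234 under vehicle, and those ranges overlapped.

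ATG13, the adaptor that joins the kinase to RB1CC1, averaged 117 ± 1.68 normalized CPM under diclofenac and 116 ± 3.92 under vehicle (SD, n = 4 and 3). Its log2 fold change was 0.02 (SE 0.0425). ATG101, which stabilises ATG13, had 35.8, 32.4, 37.5 and 30.5 normalized CPM under diclofenac and 42.9, 41.3 and 36.2 under vehicle. The third diclofenac library exceeded the lowest vehicle library, so the groups overlapped, at a log2 fold change of -0.24 (edgeR adjusted p = 0.00764). The call for ATG101 was lost without vehicle replicate 1, at a log2 fold change of -0.19 and an edgeR adjusted p = 0.0518. It was lost with the replicate block too. The 5 genes summed to 413 to 427 normalized CPM under diclofenac and 365 to 379 under vehicle. With upper-quartile factors and with total counts alike, 4 of the 5 rose, ATG13 among them, and ATG101 lost its call, beside 38.3% and 47.3% of all tested genes higher under those scalings.

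Of the 12 membrane nucleation genes, 4 were higher and 5 lower under diclofenac, beside 30.3% and 29.5% of all tested genes, so the count of rises was about the background. Lower were BECN1, AMBRA1, ATG2A, ATG9A and WIPI2, and higher were ATG14, ATG2B, ATG9B and WIPI1. Their summed level was 526 to 547 normalized CPM under diclofenac and 598 to 607 under vehicle. Scaled by total counts, 6 rose and 3 fell, beside 47.3% and 16.5% of all tested genes, and as a share of raw counts the sums overlapped (0.0549% to 0.0586% under diclofenac and 0.0552% to 0.0564% under vehicle).

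BECN1, the Beclin 1 scaffold of the lipid kinase complex, was at 47.6, 48.4, 47.8 and 45.1 normalized CPM under diclofenac and at 61.0, 62.8 and 62.1 under vehicle. Each diclofenac library lay below each vehicle library, at a log2 fold change of -0.39 (SE 0.0473, edgeR adjusted p = 2.61e-07). Of its exon length, 17.1% overlaps CNTD1 and PSME3 on the other strand, and PSME3 also fell (log2 fold change -0.52). Whether the counting kept strands apart is not stated, so reads in such overlaps cannot be assigned. The catalytic subunit PIK3C3 (VPS34) averaged 32.1 ± 1.02 normalized CPM under diclofenac and 32.3 ± 1.69 under vehicle, and its regulatory subunit PIK3R4 (VPS15) 55.9 ± 2.92 and 59.5 ± 0.182 (SD, n = 4 and 3). Neither passed the test, with edgeR adjusted p = 0.902 and 0.125, although for PIK3R4 the groups did not overlap. Scaled by total counts, PIK3C3 had a positive log2 fold change of 0.17 and passed.

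The lipid kinase complex exists in forms that carry either ATG14 or UVRAG. ATG14, which directs it to the forming autophagosome, had 19.4, 17.8, 19.0 and 19.7 normalized CPM under diclofenac and 17.3, 15.4 and 14.98 under vehicle. Every diclofenac library was higher, at a log2 fold change of 0.25 (SE 0.0711, edgeR adjusted p = 0.00442). UVRAG, the subunit of the endosomal form, averaged 30.9 ± 1.44 and 28.2 ± 0.262 (SD, n = 4 and 3) and just missed the threshold, with a log2 fold change of 0.13 and an edgeR adjusted p = 0.0510. It passed without diclofenac replicate 4, at 0.17 and an edgeR adjusted p = 0.0213. UVRAG also passed with upper-quartile factors, by total counts alone, with limma, with the minimum of 1 CPM and with the replicate block. AMBRA1, a BECN1 partner that also serves cyclin D degradation, averaged 59.3 ± 1.57 normalized CPM under diclofenac and 69.1 ± 2.58 under vehicle (SD, n = 4 and 3), a log2 fold change of -0.22. The call went with total-count scaling, at -0.04.

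In each of the ATG2, ATG9 and WIPI families, the member with the lower level per exon length rose and the other fell. Over all tested genes the median log2 fold change also fell with level, from 0.41 below 0 log2 CPM to -0.17 at 6 to 8 log2 CPM. Whether these families differ from that trend was not tested. The calls of WIPI1 and WIPI2 did not hold under every alternative, and ATG9B had 10 counts in each vehicle library. Other related genes did not all move in this way. ULK1 and ULK2 both rose, at 12.2 and 2.02 normalized CPM per kb under vehicle. MAP1LC3B rose at 19.9 per kb, while MAP1LC3B2, at 18.1, did not pass. ATG2A and ATG2B carry lipid from the endoplasmic reticulum into the growing membrane. ATG2A was at 62.9, 58.6, 58.8 and 55.3 normalized CPM under diclofenac and at 74.7, 75.2 and 69.4 under vehicle. ATG2B was at 35.2, 37.2, 33.9 and 35.2 under diclofenac and at 30.2, 28.3 and 31.4 under vehicle. Neither gene's groups overlapped, with log2 fold changes of -0.31 (SE 0.0506) and 0.24 (SE 0.0568). The count ratio of ATG2B to ATG2A, which needs no scaling between libraries, was 0.602 ± 0.0398 under diclofenac and 0.411 ± 0.0382 under vehicle (SD, n = 4 and 3).

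ATG9A and ATG9B are lipid scramblases of small vesicles that seed the membrane. ATG9A was at 42.0, 40.9, 33.6 and 40.6 normalized CPM under diclofenac and at 54.9, 49.98 and 52.2 under vehicle, a log2 fold change of -0.42 (SE 0.0648, edgeR adjusted p = 1.48e-05). All diclofenac values were lower, and the third diclofenac library was the lowest. Of its exon length 38.8% is shared with the clone-named row AC068946.2 on the same strand, which held 52 counts in all diclofenac and 21 in all vehicle libraries. ATG9B had 26, 29, 30 and 28 counts in the diclofenac libraries and 10 in each vehicle library. The groups did not overlap, at means of 1.16 normalized CPM under diclofenac and 0.447 under vehicle and a log2 fold change of 1.37 (SE 0.253, edgeR adjusted p = 7.04e-05). The equal vehicle counts vary less than counting error would make them, so their spread gives no measure of precision, and the gene passed the filter on low counts through its diclofenac libraries. ATG9B averaged below 0 log2 CPM, a range of 2583 tested genes whose median log2 fold change was 0.41, and the ATG9B change lay at the 96.7 percentile of all tested genes. The count ratio of ATG9B to ATG9A was 0.0298 ± 0.00313 under diclofenac and 0.00857 ± 0.00117 under vehicle (SD, n = 4 and 3).

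WIPI1 and WIPI2 read phosphatidylinositol 3-phosphate on the membrane, and WIPI2 recruits ATG16L1. WIPI2 was at 149, 148, 152 and 152 normalized CPM under diclofenac and at 174, 172 and 174 under vehicle, with a log2 fold change of -0.21 (SE 0.0405, edgeR adjusted p = 0.000127). The groups lay apart, but with total-count scaling WIPI2 did not pass, at -0.03. WIPI1 was at 5.96, 6.36, 6.29 and 7.02 normalized CPM under diclofenac and at 5.32, 5.499 and 5.14 under vehicle. All its diclofenac values were higher, at a log2 fold change of 0.27 (SE 0.103, edgeR adjusted p = 0.0268). That call was lost without diclofenac replicate 4, vehicle replicate 1 or vehicle replicate 3, at log2 fold changes of 0.23, 0.27 and 0.24. It was lost as well under the DESeq2 Wald test, without the filter and with the replicate block. Moreover 28.1% of the exon length of WIPI1 overlaps ARSG and AC007780.1 on the other strand, and ARSG rose by 1.13 on the log2 scale.

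Of the 10 conjugation genes, 3 were higher, 3 lower and 4 did not pass the test, which is the background of 30.3% and 29.5% of all tested genes. Higher were ATG4C, ATG10 and ATG12, and lower were ATG4B, ATG4D and ATG7. The split was 5 higher and 0 lower with total-count scaling, beside 47.3% and 16.5% of all tested genes. Their summed level was 522 to 555 normalized CPM under diclofenac and 556 to 564 under vehicle, but as a share of raw counts it was higher under diclofenac (0.0559% to 0.0576%) than under vehicle (0.0518% to 0.0523%), so the direction of the sum turned with the scaling.

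The ATG4 proteases trim LC3 and GABARAP proteins so that they can be coupled, and later free them from lipid. ATG4B is the most active form on LC3. It was at 105, 107, 109.6 and 104 normalized CPM under diclofenac and at 128, 129 and 125 under vehicle, a log2 fold change of -0.26 (SE 0.0421, edgeR adjusted p = 1.68e-05). ATG4C was at 52.2, 56.4, 56.0 and 57.5 normalized CPM under diclofenac and at 40.5, 41.7 and 42.6 under vehicle, a log2 fold change of 0.42 (SE 0.0509, edgeR adjusted p = 2.79e-07). Neither gene's groups overlapped, and they moved in opposite directions. ATG4D averaged 59.8 ± 1.67 under diclofenac and 72.3 ± 3.22 under vehicle, and ATG4A 38.2 ± 1.599 and 37.4 ± 1.19 (SD, n = 4 and 3). ATG4D fell by 0.27 on the log2 scale, while ATG4A did not pass the test at 0.03. The calls of ATG4B and ATG4D did not hold with total-count scaling, at -0.08 and -0.09, while ATG4A passed there at 0.21. The count ratio of ATG4C to ATG4D, free of that scaling, was 0.853, 0.951, 0.917 and 0.999 in the diclofenac libraries and 0.532, 0.591 and 0.605 in the vehicle libraries. Since ATG4C was called higher and ATG4D lower, this ratio is no separate evidence for either change. The mean ratio of ATG4C to ATG4A was 1.46 under diclofenac and 1.11 under vehicle, and that of ATG4A to ATG4D 0.639 and 0.518, both without overlap. The ratio of ATG4D to ATG4B overlapped between the groups, at 0.562 ± 0.0123 and 0.568 ± 0.0256 (SD, n = 4 and 3). Of the exon length of ATG4D, 15% overlaps KRI1 on the other strand, which also fell (log2 fold change -0.31).

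ATG7 is the activating enzyme shared by both conjugation routes, ATG3 carries LC3 and GABARAP proteins, and ATG10 carries ATG12. ATG7 was at 29.4, 28.35, 28.05 and 28.97 normalized CPM under diclofenac and at 34.5, 37.4 and 34.7 under vehicle, a log2 fold change of -0.31 (SE 0.0546, edgeR adjusted p = 4.65e-05). The groups did not overlap, and 18.1% of its exon length overlaps VGLL4 on the other strand. With total-count scaling ATG7 did not pass, at -0.13. ATG10 averaged 9.36 ± 0.580 normalized CPM under diclofenac and 7.18 ± 0.570 under vehicle (SD, n = 4 and 3), a log2 fold change of 0.38. ATG3 was at 107, 112, 126 and 123 normalized CPM under diclofenac and at 127, 129 and 125 under vehicle. The third diclofenac library reached the vehicle range, and the gene did not pass, at -0.11 and an edgeR adjusted p = 0.0598. Without diclofenac replicate 3 it passed, at -0.15 and an edgeR adjusted p = 0.00742, while without diclofenac replicate 1 its log2 fold change was -0.07 with an edgeR adjusted p = 0.225. ATG3 also passed with DESeq2 size factors and without the filter.

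ATG12 is joined to ATG5, and with ATG16L1 they form the ligase that places LC3 on the membrane. ATG12 was at 50.1, 49.4, 49.96 and 54.7 normalized CPM under diclofenac and at 43.9, 40.2 and 46.5 under vehicle. All diclofenac values were higher, at a log2 fold change of 0.23 (SE 0.0560, edgeR adjusted p = 0.00131). ATG5 was at 43.3, 42.9, 50.3 and 42.9 under diclofenac and at 40.3, 40.7 and 41.7 under vehicle. The groups did not overlap, yet it just missed the threshold, at 0.13 and an edgeR adjusted p = 0.0512. It passed without diclofenac replicate 1, 2 or 4, at 0.15, 0.16 and 0.16. ATG5 also passed with upper-quartile factors, by total counts alone, with the minimum of 1 CPM and with the replicate block. Without diclofenac replicate 3, its highest library, the log2 fold change was 0.08 with an edgeR adjusted p = 0.215. ATG16L1 averaged 26.9 ± 1.44 under diclofenac and 28.2 ± 2.36 under vehicle (SD, n = 4 and 3) and did not pass (log2 fold change -0.07).

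**Figure D3:**
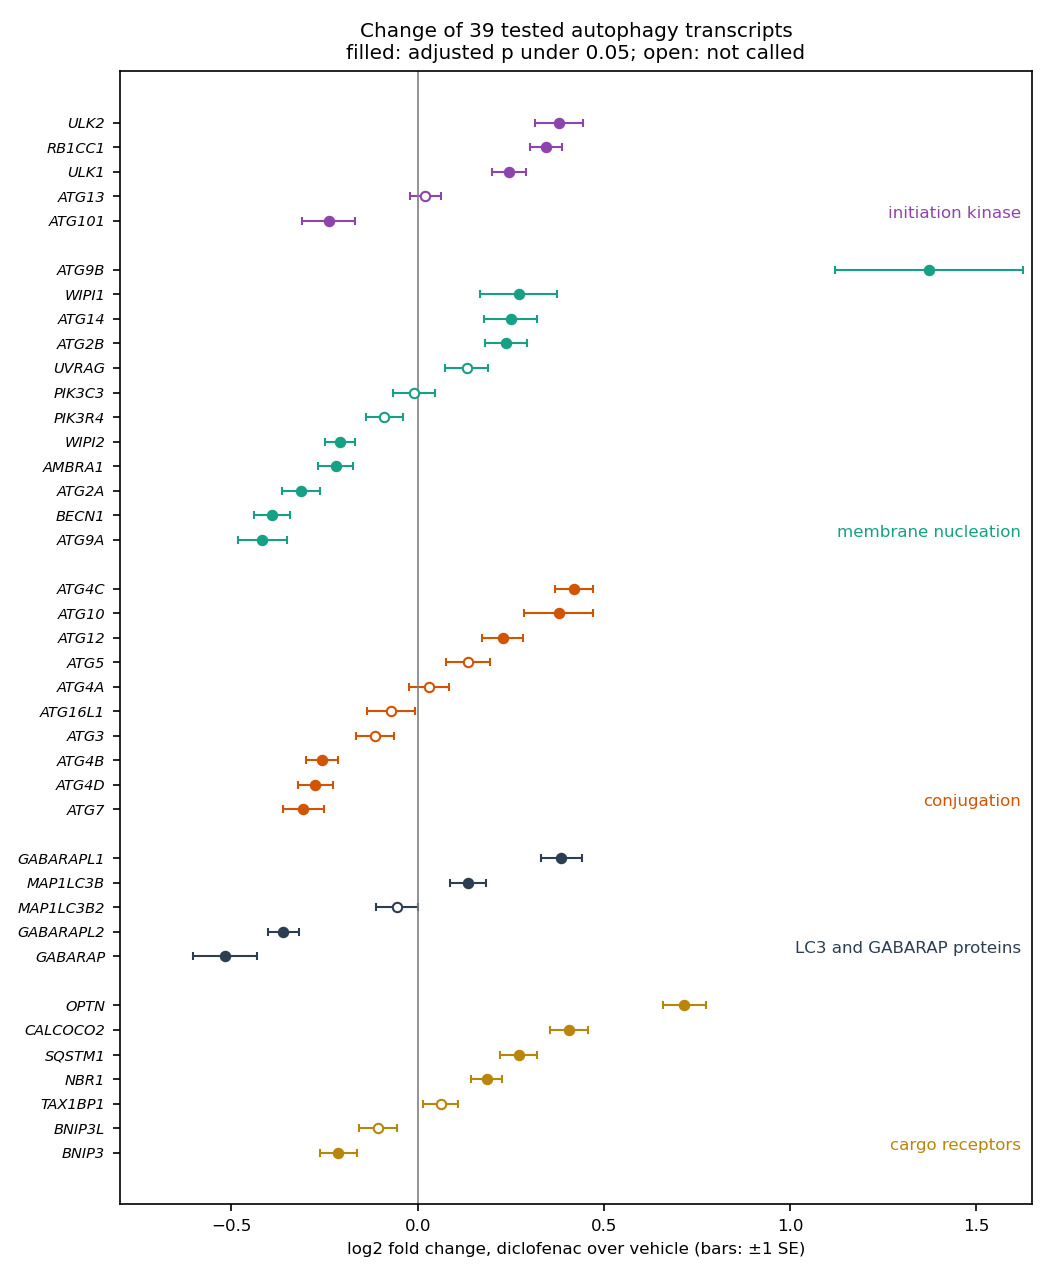
Log2 fold change of diclofenac over vehicle (horizontal axis, bars ±1 SE) for the 39 tested genes, ordered within each role, with filled points for genes at an adjusted p under 0.05. Every role holds filled points on both sides of 0, from GABARAP at -0.52 to ATG9B at 1.37, and 11 points are open.

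Of 5 tested LC3 and GABARAP genes, 2 were higher and 2 lower under diclofenac, beside 30.3% and 29.5% of all tested genes. GABARAPL1 and, less firmly, MAP1LC3B rose under diclofenac, GABARAP and GABARAPL2 fell, MAP1LC3B2 did not pass, and MAP1LC3A was near the limit of detection. These proteins are the coupled tags on the membrane; GABARAP proteins bind the ULK complex and act late in closure and fusion, and LC3 proteins bind most cargo receptors. The split of 2 higher and 2 lower was the same with upper-quartile factors and by total counts alone. The summed level was 305 to 319 normalized CPM under diclofenac and 326 to 342 under vehicle, but as a share of raw counts it was higher under diclofenac (0.0326% to 0.0339%) than under vehicle (0.0303% to 0.0314%).

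GABARAPL1 was at 38.3, 40.003, 42.1 and 42.3 normalized CPM under diclofenac and at 30.5, 32.4 and 30.7 under vehicle, a log2 fold change of 0.39 (SE 0.0553, edgeR adjusted p = 2.93e-06). GABARAPL2 was at 110.2, 110.3, 113 and 106 under diclofenac and at 140.3, 142 and 141 under vehicle, a log2 fold change of -0.36 (SE 0.0418, edgeR adjusted p = 1.39e-07). Both pairs of groups lay apart, in opposite directions. GABARAP was at 18.7, 18.2, 14.5 and 15.5 under diclofenac and at 22.5, 26.5 and 22.8 under vehicle, a log2 fold change of -0.52 (SE 0.0857, edgeR adjusted p = 3.81e-05), the largest fall among the 39 genes. GABARAP shares 30.5% of its exon length with other rows on the same strand and 25.2% on the other, and these rows, AC120057.2 and AC120057.3, held 152 counts in all diclofenac and 120 in all vehicle libraries. The count ratio of GABARAPL1 to GABARAPL2 was 0.348, 0.363, 0.373 and 0.400 in the diclofenac libraries and 0.218, 0.228 and 0.218 in the vehicle libraries. That of GABARAPL1 to GABARAP was 2.05, 2.20, 2.91 and 2.73 under diclofenac and 1.36, 1.22 and 1.35 under vehicle. Both ratios were higher in every diclofenac library, whatever the scaling between libraries. GABARAPL2 nevertheless had the highest level per exon length of the 40 genes, 36.2 normalized CPM per kb under diclofenac and 46.5 under vehicle, against 9.96 and 7.64 for GABARAPL1.

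The promoters of GABARAPL1 and GABARAPL2 are shown because these genes moved apart. Each window holds the bases before and the first bases after the start annotated by RefSeq (GRCh38.p14), both on the + strand, at chr12:10212627-10212926 for GABARAPL1 and chr16:75566129-75566428 for GABARAPL2. Capitals mark the cAMP response element TGACGTCA, which factors of the CREB and ATF families bind. This motif was chosen after the data were seen, and its part in the changes was not tested.
GABARAPL1: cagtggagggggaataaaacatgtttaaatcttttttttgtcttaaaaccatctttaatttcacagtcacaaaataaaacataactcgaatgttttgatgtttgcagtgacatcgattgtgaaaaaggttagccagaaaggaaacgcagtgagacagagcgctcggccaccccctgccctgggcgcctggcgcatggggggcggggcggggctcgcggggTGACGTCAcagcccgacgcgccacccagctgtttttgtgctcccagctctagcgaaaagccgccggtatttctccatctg
GABARAPL2: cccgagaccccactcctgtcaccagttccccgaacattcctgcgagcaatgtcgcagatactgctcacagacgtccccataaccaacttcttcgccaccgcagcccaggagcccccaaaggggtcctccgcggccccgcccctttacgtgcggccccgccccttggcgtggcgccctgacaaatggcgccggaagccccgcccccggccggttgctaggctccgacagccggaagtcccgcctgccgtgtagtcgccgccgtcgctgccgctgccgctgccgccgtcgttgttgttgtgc
The GABARAPL1 window holds 51.7% G and C and the GABARAPL2 window 69%, beside a median of 58.7% over 35116 promoters.

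Of the 40 genes, 35 had at least 1 promoter in the RefSeq table, 44 windows in all, and RB1CC1, UVRAG, ATG4D, MAP1LC3A and BNIP3L had no entry. Motifs were searched on both strands. TGACGTCA was found in the GABARAPL1 window alone among the 44, and in 1.85% of 35116 promoters. TGATGNAA, a form of the element bound by ATF4 with a C/EBP partner, was in none of the 44 and in 3.62% of all promoters. TCACGTGA, the core of the element bound by TFEB and its relatives, was in the ATG3 window and in 0.98% of all promoters. The E-box CACGTG, which lies inside it, was in the windows of ATG3, ATG14 and BNIP3 and in 7.26% of all promoters. These genes differed in direction, with ATG14 higher under diclofenac, BNIP3 lower and ATG3 not passing the test. The ATG3 window (GRCh38.p14, chr3:112561913-112562212, - strand) is shown with CACGTG and TCACGTGA in capitals, because it holds the TFEB-type match.
ATG3: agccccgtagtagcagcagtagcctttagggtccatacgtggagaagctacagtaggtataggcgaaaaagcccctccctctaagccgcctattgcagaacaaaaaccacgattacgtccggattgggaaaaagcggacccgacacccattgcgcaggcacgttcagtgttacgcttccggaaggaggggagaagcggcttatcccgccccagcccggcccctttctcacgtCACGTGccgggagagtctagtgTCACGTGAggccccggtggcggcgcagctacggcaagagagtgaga

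MAP1LC3B is the LC3 gene most used as a marker of autophagosomes. It was at 108.8, 119, 112 and 124 normalized CPM under diclofenac and at 101, 109.1 and 107 under vehicle. The lowest diclofenac library lay just below the highest vehicle library, so the groups overlapped, at a log2 fold change of 0.13 (SE 0.0491, edgeR adjusted p = 0.0219). The call was lost without diclofenac replicate 2 or 4 or vehicle replicate 1, at 0.13, 0.11 and 0.10. It was lost as well under the DESeq2 Wald test, without the filter and with the replicate block. MAP1LC3B2, a near-copy of the gene, was at 28.5, 31.5, 31.9 and 30.9 normalized CPM under diclofenac and at 31.6, 31.7 and 32.5 under vehicle, and did not pass (log2 fold change -0.05). MAP1LC3A had 2, 1, 2 and 0 counts in the diclofenac libraries and 2, 1 and 1 in the vehicle libraries. All of these are below the floor of 3 counts per library, so no fold is given.

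Reads of MAP1LC3B and MAP1LC3B2 can hardly be told apart in the coding part. The longest open reading frames in GENCODE release 29 have 378 bases each and differ at 2 of them, C30G and A338G, written as the base in MAP1LC3B, the position counted from 1 at the A of the start codon, and the base in MAP1LC3B2. The frames are thus 99.5% identical. Shown are the first and the last 60 coding bases, with the differing base in capitals. The last stretch includes the ggg codon of the glycine at which ATG4 proteases cut.
MAP1LC3B, bases 1 to 60: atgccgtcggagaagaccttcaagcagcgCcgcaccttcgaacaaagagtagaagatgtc
MAP1LC3B2, bases 1 to 60: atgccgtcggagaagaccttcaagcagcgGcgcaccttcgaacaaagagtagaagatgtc
MAP1LC3B, bases 319 to 378: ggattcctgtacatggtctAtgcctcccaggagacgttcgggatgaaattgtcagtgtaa
MAP1LC3B2, bases 319 to 378: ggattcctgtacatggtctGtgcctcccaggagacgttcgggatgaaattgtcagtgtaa
With the counts of both added into 1 row, the log2 fold change was 0.09 and did not pass (edgeR adjusted p = 0.0912). The count ratio of MAP1LC3B to MAP1LC3B2 was 3.78 ± 0.203 under diclofenac and 3.31 ± 0.118 under vehicle (SD, n = 4 and 3). How the authors' counting placed reads that match both is not stated in the labels.

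**Figure D4:**
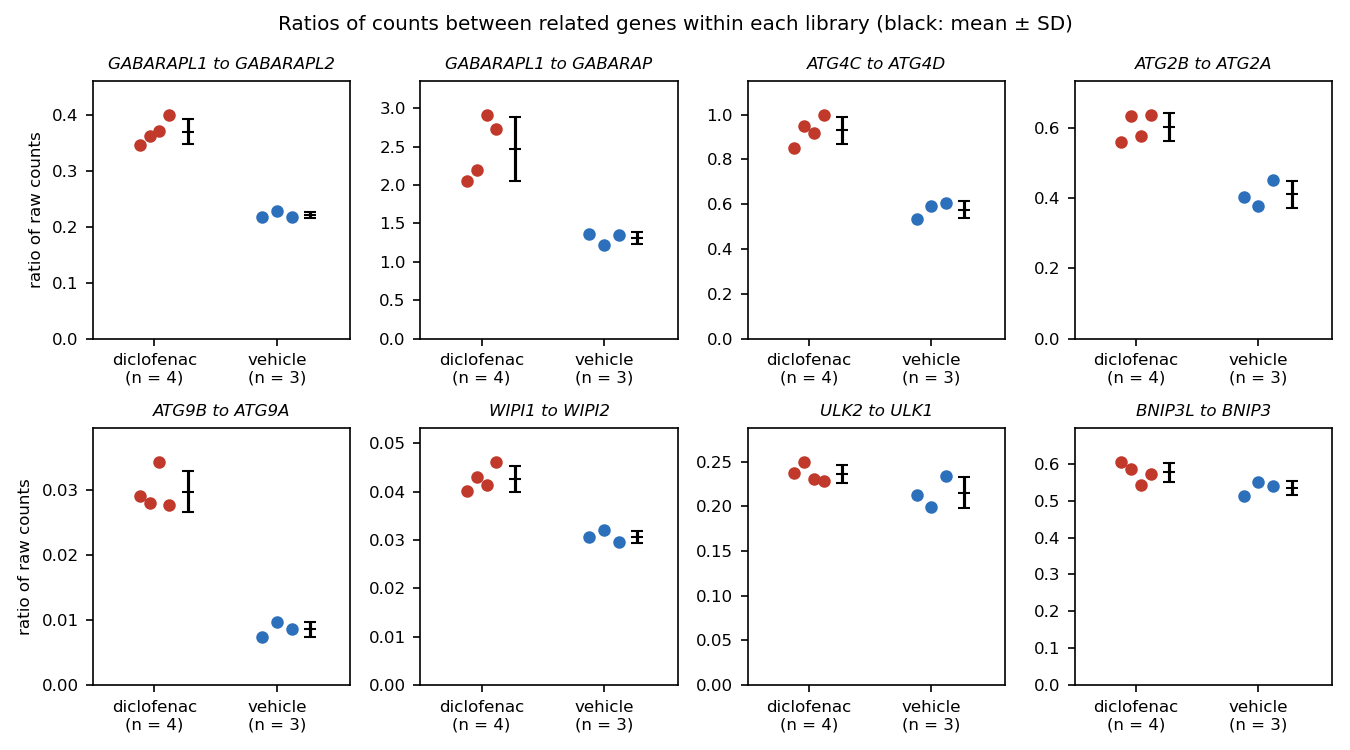
Ratios of raw counts between related genes in each library (vertical axes from 0), diclofenac in red (n = 4) and vehicle in blue (n = 3), with mean ± SD in black. In 6 panels every diclofenac library lies above every vehicle library, as for GABARAPL1 to GABARAPL2 at 0.371 against 0.221, while ULK2 to ULK1 and BNIP3L to BNIP3 overlap. In each of these 6 the first gene was called higher and the second lower, so they are no separate evidence. Taken singly, 58.5% of all tested genes had groups that lay apart.

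Cargo receptors bring ubiquitin-marked proteins, mitochondria or bacteria to LC3. Of 7 receptor genes, OPTN, CALCOCO2, SQSTM1 and NBR1 rose, BNIP3 fell, and TAX1BP1 and BNIP3L did not pass the test. These are 4 higher and 1 lower, beside 30.3% and 29.5% of all tested genes. The summed level of the 7 was 627 to 668 normalized CPM under diclofenac and 575 to 596 under vehicle. Scaled by total counts, 5 rose, TAX1BP1 among them, and BNIP3 did not pass, beside 47.3% higher and 16.5% lower of all tested genes.

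OPTN (optineurin), a receptor for damaged mitochondria and bacteria that the kinase TBK1 phosphorylates, was at 38.8, 41.0, 43.9 and 41.4 normalized CPM under diclofenac and at 25.0, 26.2 and 24.3 under vehicle. The lowest diclofenac library was well above the highest vehicle library, at a log2 fold change of 0.72 (SE 0.0578, edgeR adjusted p = 5.34e-10). That change lay at the 88.7 percentile of all tested genes. CALCOCO2 (NDP52), which acts with OPTN on mitochondria and on bacteria, was at 101, 100.03, 108 and 107 normalized CPM under diclofenac and at 73.2, 78.8 and 83.5 under vehicle, a log2 fold change of 0.41 (SE 0.0501, edgeR adjusted p = 3.51e-07). The groups did not overlap. TBK1 itself averaged 41.8 ± 2.77 normalized CPM under diclofenac and 40.9 ± 3.16 under vehicle (SD, n = 4 and 3) and did not pass (log2 fold change 0.03).

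SQSTM1 (p62), which gathers ubiquitin-marked proteins and is itself degraded by autophagy, was at 58.0, 56.9, 61.3 and 60.5 normalized CPM under diclofenac and at 51.9, 47.4 and 47.7 under vehicle. All diclofenac values were higher, at a log2 fold change of 0.27 (SE 0.0507, edgeR adjusted p = 8.35e-05). Of its exon length, 22% overlaps MGAT4B and MRNIP on the other strand, of which MRNIP rose by 0.35 on the log2 scale. NBR1, a partner of p62, was at 134, 137, 131 and 132 normalized CPM under diclofenac and at 118, 118 and 116 under vehicle, a log2 fold change of 0.19 (SE 0.0411). TAX1BP1, a relative of CALCOCO2, had the highest level among the receptors per exon length, 21.8 normalized CPM per kb under diclofenac and 20.8 under vehicle. It averaged 199 ± 10.6 normalized CPM under diclofenac and 191 ± 7.22 under vehicle (SD, n = 4 and 3) and did not pass (log2 fold change 0.06). TAX1BP1 passed with upper-quartile factors, at 0.15, and with total-count scaling, at 0.24.

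BNIP3 and BNIP3L (NIX) sit in the outer mitochondrial membrane, bind LC3 proteins directly and are induced by hypoxia. BNIP3 was at 64.3, 66.3, 73.3 and 72.1 normalized CPM under diclofenac and at 80.2, 78.9 and 81.0 under vehicle, a log2 fold change of -0.21 (SE 0.05001, edgeR adjusted p = 0.000865). The groups lay apart, but BNIP3 did not pass with total-count scaling, at -0.03. The pseudogene row BNIP3P1 held 4772 counts against 12152 for BNIP3, so reads may be divided between them. BNIP3P1 was itself lower under diclofenac, at a log2 fold change of -0.28 (edgeR adjusted p = 0.000174). With both added, a check made after these counts were seen, the log2 fold change was -0.23 and still passed. As both rows fell, their sum was bound to fall, so it cannot show how reads were divided. BNIP3L averaged 39.7 ± 1.14 normalized CPM under diclofenac and 42.8 ± 1.38 under vehicle (SD, n = 4 and 3) and did not pass (log2 fold change -0.11, edgeR adjusted p = 0.0754). Without vehicle replicate 1 it passed, at -0.14 and an edgeR adjusted p = 0.0483. BNIP3L to BNIP3 count ratios overlapped between the groups, at 0.577 ± 0.0269 and 0.535 ± 0.0189 (SD, n = 4 and 3).

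**Figure D5:**
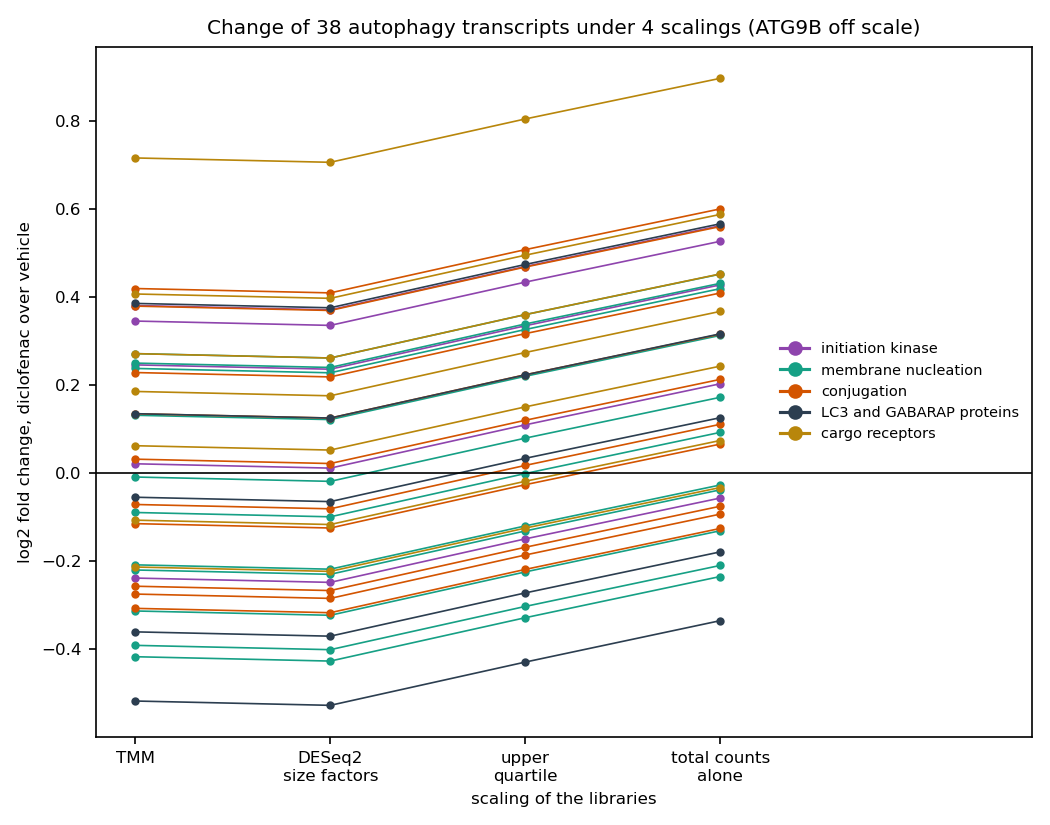
Log2 fold change of diclofenac over vehicle (vertical axis) for 38 tested genes under TMM factors, DESeq2 size factors, upper-quartile factors and total counts alone (horizontal axis), 1 line per gene, coloured by role, with ATG9B left off as above the range. The lines run parallel, so the order of the genes is kept while the zero line moves, and by total counts alone 5 genes remain called below 0.

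A further list of 35 genes of autophagy, taken from general knowledge of the pathway and holding none of the 40, was read beside them. Of these, 13 were higher and 10 lower under diclofenac and 12 did not pass, with a median log2 fold change of 0.03, against 0.02 over all tested genes. The share called was 65.7%, against 59.7% of all tested genes, of which 30.3% were higher and 29.5% lower. The split was 18 higher and 7 lower with upper-quartile factors, beside 38.3% and 22.8% of all tested genes. By total counts alone it was 22 and 4, beside 47.3% and 16.5%. The largest rises were those of CCPG1, a receptor for the endoplasmic reticulum, TP53INP1, a p53 target that binds LC3, and DRAM1, a p53 target of the lysosome. CCPG1 was at 11.4, 11.2, 10.4 and 11.1 normalized CPM under diclofenac and at 6.46, 6.62 and 6.30 under vehicle, a log2 fold change of 0.77 (SE 0.0867, edgeR adjusted p = 9.20e-08). Of its exon length 38.9% overlaps other rows on the same strand, among them the read-through gene DNAAF4-CCPG1. TP53INP1 rose by 0.75 (SE 0.0888) and DRAM1 by 0.65 (SE 0.135) on the log2 scale, with no overlap of the groups. The largest falls were those of VPS18, PINK1 and DEPP1. VPS18, a subunit of the complexes that tether vesicles to the lysosome, was at 45.8, 43.2, 44.99 and 41.9 normalized CPM under diclofenac and at 64.4, 63.5 and 61.6 under vehicle, a log2 fold change of -0.52 (SE 0.0489, edgeR adjusted p = 5.16e-09). PINK1, the kinase that marks damaged mitochondria, fell by 0.51 (SE 0.0530), and 39.4% of its exon length overlaps other rows on the other strand, mainly PINK1-AS. DEPP1 fell by 0.47 (SE 0.171, edgeR adjusted p = 0.0205), but lost its call without diclofenac replicate 4, at -0.34 and an edgeR adjusted p = 0.0863. Its call was also lost with upper-quartile factors, by total counts alone, under the DESeq2 Wald test and with the replicate block.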

How the data were processed

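The values were raw counts per gene as deposited by the authors, 1 column per library. Per the labels' protocols, total RNA went into a directional library kit. The submitters' processing notes name DESeq and the mouse build GRCm38, although the rows carry human symbols. The aligner, counter, annotation and strand setting are not stated in these notes or labels. No label says whether the libraries come from separate cultures. The p-values thus cover the spread between these libraries, which may be technical. Library pairs within a group differed beyond sampling noise (chi-square per degree of freedom 2.17 to 7.40).

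Genes were filtered with filterByExpr (minimum count 10, minimum total 15; 99.9% of counts kept) and scaled by TMM. All 7 libraries entered edgeR 4.0.16 (R 4.3.3), with group as the only term, its quasi-likelihood test, and Benjamini-Hochberg adjustment over all tested genes. SE were derived from the F statistic. The steps were tested on simulated data in which few genes changed, as many up as down. That test holds no shift of the bulk of genes, so it cannot judge the choice of scaling. Exon lengths came from GENCODE release 29, promoters from RefSeq. The 40 genes and the list of 35 were chosen with earlier results of these data known. All 40 are named, and of the list the 3 largest called rises and falls, with TBK1, the kinase of OPTN, chosen after its values were seen. TGACGTCA and the addition of BNIP3P1 were chosen after seeing the data. Alternatives were DESeq2 size factors, upper-quartile factors, total counts alone, the Wald test of DESeq2 1.42.0, limma 3.58.1 with trend (prior count 2), no filter, a minimum of 1 CPM throughout a group, each library left out, a replicate block, and added MAP1LC3B2 counts.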

Additional observations from a re-analysis of the deposited data

Results flagged for a closer look

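In 4 of 45 genes checked, 1 diclofenac library stood apart from the other 3 by Dixon's ratio, and chance alone gives about 1 in 20. ATG5 was at 50.3 normalized CPM in diclofenac replicate 3, against 43.3 in the next library. ATG12 was at 54.7 in diclofenac replicate 4, against 50.1 in the next. TP53INP1 was at 15.2 in diclofenac replicate 4, below 18.8 in the next, and DEPP1 at 1.24 in the same library, below 1.82.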

How the results depend on the processing

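Of the 28 called autophagy genes, 19 kept their call and direction under every alternative run, and 9 (ATG101, AMBRA1, WIPI1, WIPI2, ATG4B, ATG4D, ATG7, MAP1LC3B and BNIP3) lost the call under at least 1. By total counts alone, 8655 genes were higher and 3027 lower in the whole table, 5 autophagy genes were lower and PIK3C3 turned to a log2 fold change of 0.17; that scaling raised the median of all genes by 0.18. Those still lower were BECN1, ATG2A, ATG9A, GABARAP and GABARAPL2. Over the other alternatives the autophagy genes gave 14 to 20 higher and 11 to 13 lower. Leaving out each library gave 14 to 17 higher and 12 to 13 lower. With the replicate block, 16 were higher and 11 lower; same-numbered libraries did not deviate together (correlations 0.000867, 0.0216 and -0.0474), so the numbers were not taken as a pairing. MAP1LC3A, at 0 to 2 counts per library, was too weak to test.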
